A study of Mus musculus with 29 samples.

Results

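The genes described here are 37 genes of protein folding and stress signalling in the endoplasmic reticulum (ER), read in mouse lung tumours driven by KrasV12 with or without Mad2. They were taken from a list of 38 names, in which Armet and Manf are the same gene and Ero1l is now Ero1a, and each name was matched to the probe sets annotated to it. All 37 genes passed the filter on low signals, among 14602 genes tested, and each is represented by the probe set with the highest mean log2 signal. They were divided by role into 15 chaperones and folding enzymes known as targets of Atf6 and Xbp1, 4 sensors and transcription factors of the response, 6 genes of the Atf4-Chop arm, 8 genes of ER-associated degradation and 4 genes of translocation and disulfide formation.

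The arrays held RNA from lung tissue of mice of a mixed 129/Bl6 background, 1 array per sample. The 8 TI-K primary tumours came from mice with CCSP-rtTA and TRE-KrasV12, in which the CCSP promoter of airway epithelium drives a doxycycline-dependent transactivator and the TRE promoter places KrasV12 under it. The 14 TI-KM primary tumours and the 6 recurrences came from mice that carried TRE-Mad2 in addition, a spindle checkpoint gene placed under the same control. The 1 normal lung came from a mouse with CCSP-rtTA alone, so all groups share that transgene. The labels call the tumours adenocarcinoma or adenoma and give no age, doxycycline schedule or time of sampling; the series title speaks of relapse after the oncogene is withdrawn. The title number 76 is carried by both TI-KM primary 1 and TI-KM primary 2, so 1 mouse may have given both. Nothing else in the labels says which tumours came from separate mice, so p-values measure the spread between these samples. The signal of Mad2l1, the mouse gene for Mad2, was 938 ± 319 (SD, n = 8) in TI-K primaries, 751 ± 207 (SD, n = 14) in TI-KM primaries, 868 ± 563 (SD, n = 6) in recurrences, while the normal array read 340, so this probe set did not separate mice with the Mad2 transgene from those without it. Whether it can detect RNA of the transgene was not tested, and the KrasV12 transgene was not analysed here.

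Unfolded protein in the ER is sensed by 3 membrane proteins, Ern1 (IRE1), Eif2ak3 (PERK) and Atf6. Ern1 splices the mRNA of Xbp1, and the spliced Xbp1 protein and the cleaved Atf6 protein switch on chaperones, folding enzymes and degradation factors through promoter elements called ERSE. Eif2ak3 slows translation and lets Atf4 be made, which with its target Ddit3 (Chop) drives genes of amino acid supply and cell death through elements called CARE. Secretory cells such as plasma cells, goblet cells and surfactant-making alveolar cells are known for high levels of the first group of genes. An array of this kind reads neither Xbp1 splicing nor protein.

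The promoter elements known for these arms are shown first, because the comparisons are ordered by the arms. The arms themselves were set by the role of the genes and not by these elements. Of the 37 genes, 32 had a promoter window in the RefSeq table of the GRCm38.p6 mouse genome, running from 250 bases before to 50 bases after the annotated start, and 27025 genes of that table had one. The exact ERSE, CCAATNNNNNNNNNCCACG on either strand, was present in 9 of the 32 genes (28.1%) and in 37 of all 27025 genes (0.137%). It stood in 7 of the 13 chaperones with a window (53.8%), in 2 of 7 degradation genes and in 0 of 6 genes of the Atf4-Chop arm. ERSE was defined from promoters of this gene family, so its presence there is background. The matches follow, each read 5′ to 3′ in the orientation of the element, with the fixed letters in capitals.
Hspa5: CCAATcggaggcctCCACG
Hsp90b1, first match: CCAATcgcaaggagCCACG
Hsp90b1, second match: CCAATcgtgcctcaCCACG
Pdia6: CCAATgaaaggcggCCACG
Calr: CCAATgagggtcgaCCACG
Canx: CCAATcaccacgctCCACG
Dnajc3: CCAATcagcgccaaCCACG
Creld2: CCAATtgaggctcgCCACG
Derl3: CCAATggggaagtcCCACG
Syvn1: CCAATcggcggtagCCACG

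Hsp90b1 carried 2 exact matches. With 1 fixed letter allowed to change, 15 of the 32 genes (46.9%) and 1.72% of all genes had a match. The 6 genes added in this way include Pdia3 and Pdia4. Their matches are printed with the changed letter left in lower case.
Pdia3: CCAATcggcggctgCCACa
Pdia4: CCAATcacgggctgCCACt
Herpud1: CCAATggatggcagCCACa
Derl2: CCAATccctgccggCCACa
Sel1l: CCAATtagctggggCCAtG
Ddit3: CCAATcagaaagcggCACG

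The shorter ERSE-II, ATTGGNCCACG, was found in Dnajb11 and Herpud1 (6.25% of the 32 genes and 0.0444% of all), and the UPRE core, TGACGTG, in Hspa5 alone (3.12% and 2.22%). CARE, searched as TGATGNAA, was found in 4 of the 32 genes (12.5%) and in 4.51% of all genes. Of the 6 genes of the Atf4-Chop arm 3 had it, and the fourth gene was Herpud1, a degradation factor of the ER membrane. These short matches follow in the orientation of the element.
Trib3: TGATGtAA
Asns: TGATGaAA
Chac1: TGATGcAA
Herpud1: TGATGcAA

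The whole windows of 5 genes are given to place the elements: Hspa5 and Hsp90b1 as the best known chaperones, Pdia6 as the member furthest above the normal lung, Herpud1 because it holds elements of both arms, and Trib3 for the Atf4-Chop arm. Each is printed on the strand of the gene, 5′ to 3′, with every exact match to the 4 elements in capitals and the annotated start 50 bases before the end of the window. A match is a description of letters, and no binding was measured.
Hspa5, chr2:34771840-34772139, plus strand: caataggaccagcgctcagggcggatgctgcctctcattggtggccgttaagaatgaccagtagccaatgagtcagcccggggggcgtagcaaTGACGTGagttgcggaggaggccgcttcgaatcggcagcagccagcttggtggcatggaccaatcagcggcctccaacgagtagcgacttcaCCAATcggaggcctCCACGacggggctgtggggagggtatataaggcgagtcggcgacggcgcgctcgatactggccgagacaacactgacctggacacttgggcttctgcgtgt
Hsp90b1, chr10:86705395-86705694, minus strand: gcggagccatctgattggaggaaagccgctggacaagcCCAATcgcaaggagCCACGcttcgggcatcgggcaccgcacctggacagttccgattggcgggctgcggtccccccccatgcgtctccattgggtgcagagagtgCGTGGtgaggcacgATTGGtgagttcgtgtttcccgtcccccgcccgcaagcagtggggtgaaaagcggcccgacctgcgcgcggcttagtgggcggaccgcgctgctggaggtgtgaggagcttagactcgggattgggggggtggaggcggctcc
Pdia6, chr12:17266339-17266638, plus strand: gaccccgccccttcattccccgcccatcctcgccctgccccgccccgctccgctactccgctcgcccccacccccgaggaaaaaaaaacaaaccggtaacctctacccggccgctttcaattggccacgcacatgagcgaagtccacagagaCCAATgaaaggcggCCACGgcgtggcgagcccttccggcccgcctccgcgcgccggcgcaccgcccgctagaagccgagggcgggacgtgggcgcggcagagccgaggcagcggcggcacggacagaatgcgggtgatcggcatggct
Herpud1, chr8:94386179-94386478, plus strand: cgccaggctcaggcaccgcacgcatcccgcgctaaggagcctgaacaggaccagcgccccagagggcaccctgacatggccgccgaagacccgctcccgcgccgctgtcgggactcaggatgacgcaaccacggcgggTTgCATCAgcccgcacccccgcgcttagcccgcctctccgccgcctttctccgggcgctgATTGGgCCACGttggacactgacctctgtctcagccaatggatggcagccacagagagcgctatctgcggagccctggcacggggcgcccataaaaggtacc
Trib3, chr2:152344011-152344310, minus strand: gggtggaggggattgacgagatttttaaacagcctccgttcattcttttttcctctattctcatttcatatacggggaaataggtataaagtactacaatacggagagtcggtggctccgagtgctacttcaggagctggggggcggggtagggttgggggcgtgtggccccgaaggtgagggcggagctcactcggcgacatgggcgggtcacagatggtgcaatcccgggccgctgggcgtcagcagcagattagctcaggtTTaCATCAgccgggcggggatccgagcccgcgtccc

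Several arrays stand apart, and the results are given with and without them. An 18S ribosomal control signal above 12000 marks the TI-KM primaries numbered 1 to 6, together with recurrences 1 to 4, here called high-18S arrays. The TI-K primaries numbered 1 to 5 carry title numbers above 6000, and the remaining 13 tumours are 3 TI-K and 8 TI-KM primaries with 2 recurrences. The labels do not name these sets. The normal lung lies on the high-18S side at 12569. No TI-K primary is a high-18S array, so for recurrences and for TI-KM primaries against TI-K primaries the sets and the groups overlap in part. The arrays of high title number are all TI-K primaries. With the sets as a block, the TI-K side therefore rests on the 3 remaining TI-K primaries alone. Of the housekeeping controls, the 3′ over 5′ signal, which grows as RNA breaks down, had a mean log2 of 1.32 ± 0.45 over the 6 recurrences and of 2.16 ± 0.41 and 2.16 ± 0.67 over the TI-K and the TI-KM primaries (SD). TI-KM primary 3 had the highest ratio of all, at 4.01, and the lowest signal of 28 tumours for 11 of the 37 genes, where 8.18% of all genes had their lowest tumour signal in that array.

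Recurrence 1 stands apart by B cell and plasma cell transcripts. Mzb1, an ER protein of antibody-secreting cells, had a signal of 16712 there and at most 2366 in any other tumour. Pou2af1, a B cell coactivator, had 13826 against at most 807, and Ms4a1 (CD20) had 10963 against at most 985. Not all listed markers did so. Sdc1 read 11025 in recurrence 1, the lowest of the 28 tumours, and Ighm read 10486, where TI-KM primary 11 had 19827. Igha, at 20147, was hardly above the 19998 of TI-KM primary 9. The summed signal of the 12 measured plasma and B cell markers, of 15 listed, was 129337 in recurrence 1, 39909 to 67761 in the other 5 recurrences and at most 81056 in the other tumours, and 30632 in the normal lung. Sdc1 is a large part of this sum in TI-K primaries, with a median of 20416 beside a median sum of 50571, and was 3517 in the normal lung. Ms4a1 and Cd79a were at 678 and 148 in the normal lung and at medians of 162 and 43 in TI-K primaries. The sum therefore does not compare these cells between tumours and the normal lung. The summed epithelial markers of recurrence 1 were the lowest of all tumours, at 18753 against a next lowest of 35508, and its alveolar type II markers too, at 80044 against 116701. The same array had the highest signal of 28 tumours for 11 of the 37 genes, 7 of them chaperones, while 14.8% of all genes tested had their highest tumour signal there. These are bulk samples, in which fewer cells of a type and less RNA per cell cannot be told apart.

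**Figure D1:**
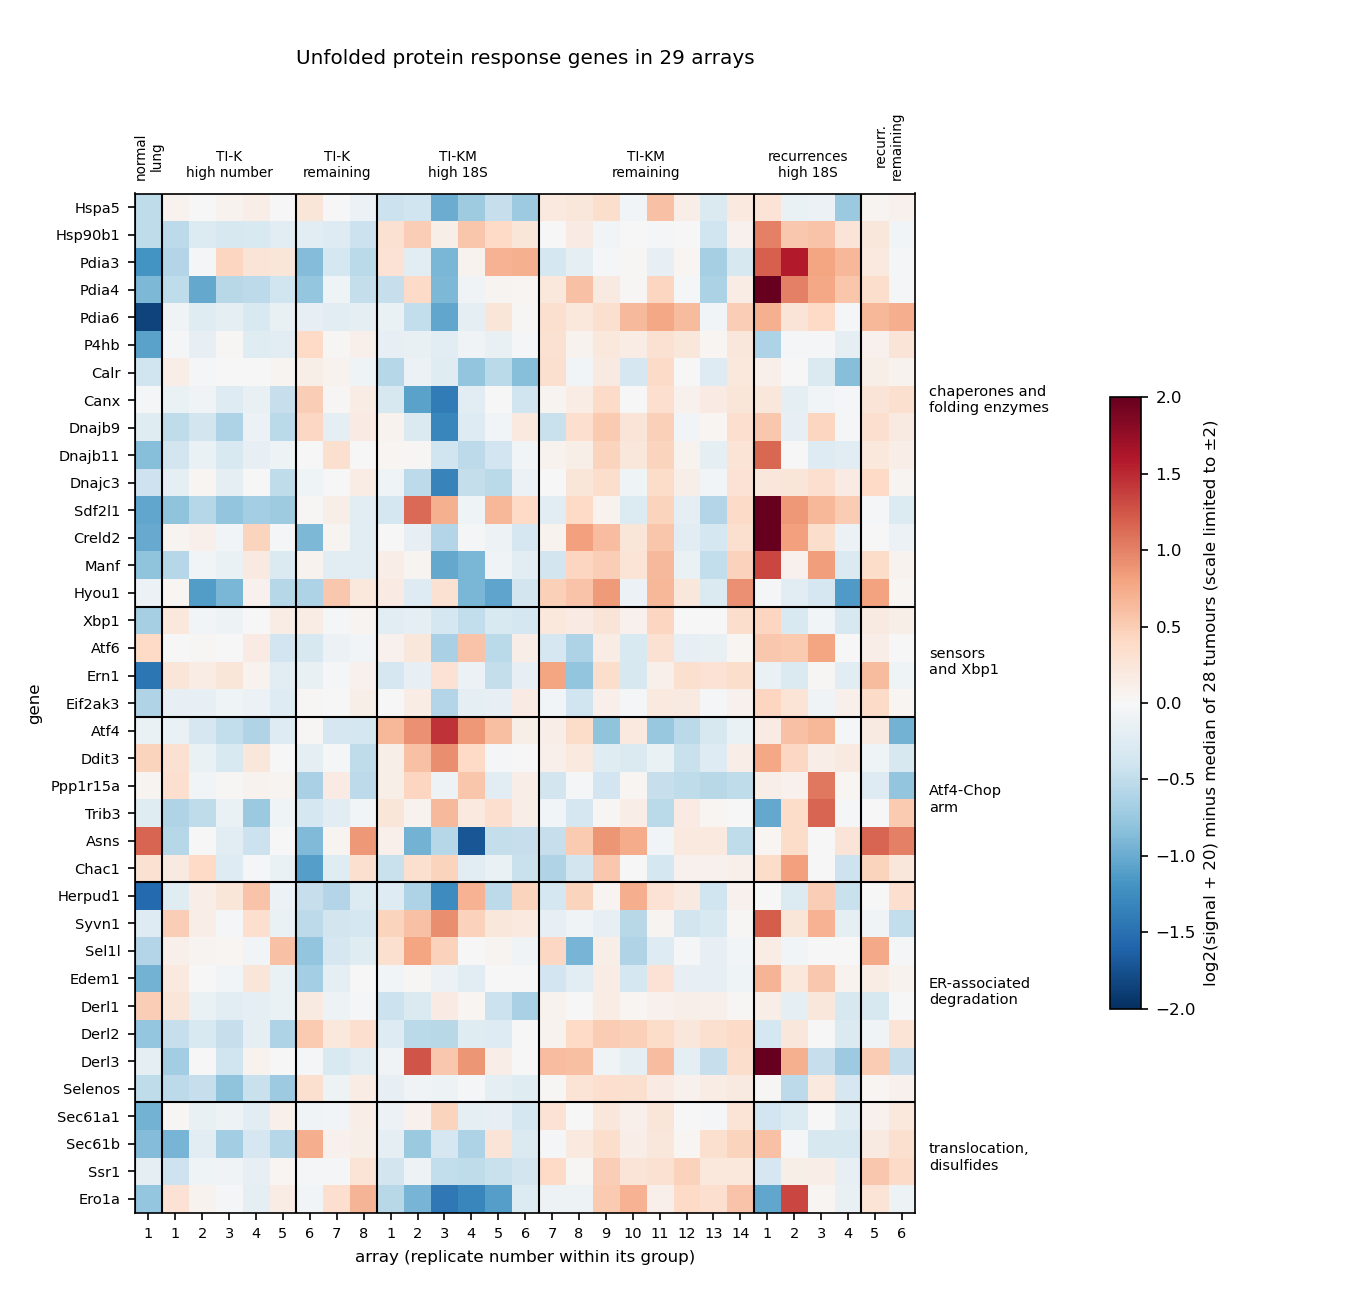
Log2 signal (offset 20) of the 37 genes, each row centred on its median over the 28 tumours, in all 29 arrays. Columns are arrays ordered by group and set, rows are genes ordered by arm, and the colour gives the log2 distance from the row's median, with the scale limited to 2 either way; recurrence 1 is the array with the highest signal for 11 genes, and in TI-KM primaries limma called 22 genes between the 6 high-18S arrays and the other 8.

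In recurrences, 5 folding enzymes and chaperones were higher than in TI-K primaries, by 0.65 to 1.34 on the log2 scale. They were the disulfide isomerases Pdia3, Pdia4 and Pdia6, the chaperone Hsp90b1 and Sdf2l1, a partner of ER chaperones. No member was lower. The 5 calls are 13.5% of the 37 genes, and limma called 12.2% of all genes higher and 18.8% in either direction at an adjusted p below 0.05, so the share of members called lies near that of the background. At an unadjusted p below 0.05, 12 members were higher, where 5162 of all 14602 genes passed in either direction. That count of members is no excess over the background.

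Pdia4, which forms and rearranges disulfide bonds in secretory proteins, had signals of 154, 228 and 311 in TI-K primaries (lowest, median and highest), 170, 344 and 511 in TI-KM primaries, 329, 540 and 1521 in recurrences and 170 in the normal lung. Every recurrence lay above every TI-K primary, while recurrences and TI-KM primaries overlapped. Its difference between recurrences and TI-K primaries was log2 1.34 ± 0.25 (SE), 2.53-fold, with a limma adjusted p of 0.00115.

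Hsp90b1 (Grp94), the Hsp90 chaperone of the ER lumen, had signals of 8444, 9887 and 10441 in TI-K primaries, 9121, 12969 and 17732 in TI-KM primaries, 11660, 16089 and 24298 in recurrences and 8529 in the normal lung. Again every recurrence exceeded every TI-K primary. The difference was log2 0.74 ± 0.14, 1.67-fold (limma adjusted p = 0.00127). Its other probe set gave -0.14 for the same comparison where the representative one gave 0.74, so the probe sets of this gene disagree in sign.

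Pdia6, a further disulfide isomerase, spanned 3663, 4006 and 4334 in TI-K primaries, 2207, 5324 and 7764 in TI-KM primaries, 4477, 6633 and 7555 in recurrences, and was 1243 in the normal lung. The TI-K primaries were tightly grouped and lay below all recurrences, within the wide range of TI-KM primaries. Its difference was log2 0.65 ± 0.20 (limma adjusted p = 0.0253). These 3 genes, Pdia4, Hsp90b1 and Pdia6, were the members whose recurrences did not overlap TI-K primaries, where 1.61% of all genes had every recurrence above every TI-K primary.

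Pdia3 (ERp57), which works on glycoproteins held by calnexin and calreticulin, had signals of 1199, 1932 and 2969 in TI-K primaries, 1162, 2060 and 3618 in TI-KM primaries and 2160, 3662 and 6645 in recurrences, and 950 in the normal lung. The groups overlapped, and recurrence 2 was the highest array. Its difference was log2 0.92 ± 0.25 (limma adjusted p = 0.0144), and without recurrence 2 the adjusted p was 0.0525. Sdf2l1 had signals of 147, 170 and 296 in TI-K primaries, 175, 326 and 620 in TI-KM primaries, 222, 419 and 1999 in recurrences and 122 in the normal lung. The value of 1999 belongs to recurrence 1, and the next recurrence was at 511. Its difference was log2 1.21 ± 0.32 (limma adjusted p = 0.0127). With the 3′/5′ ratio as a covariate, which was lower in recurrences, Pdia3 and Pdia6 were not called, while Pdia4, Hsp90b1 and Sdf2l1 were.

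**Figure D2:**
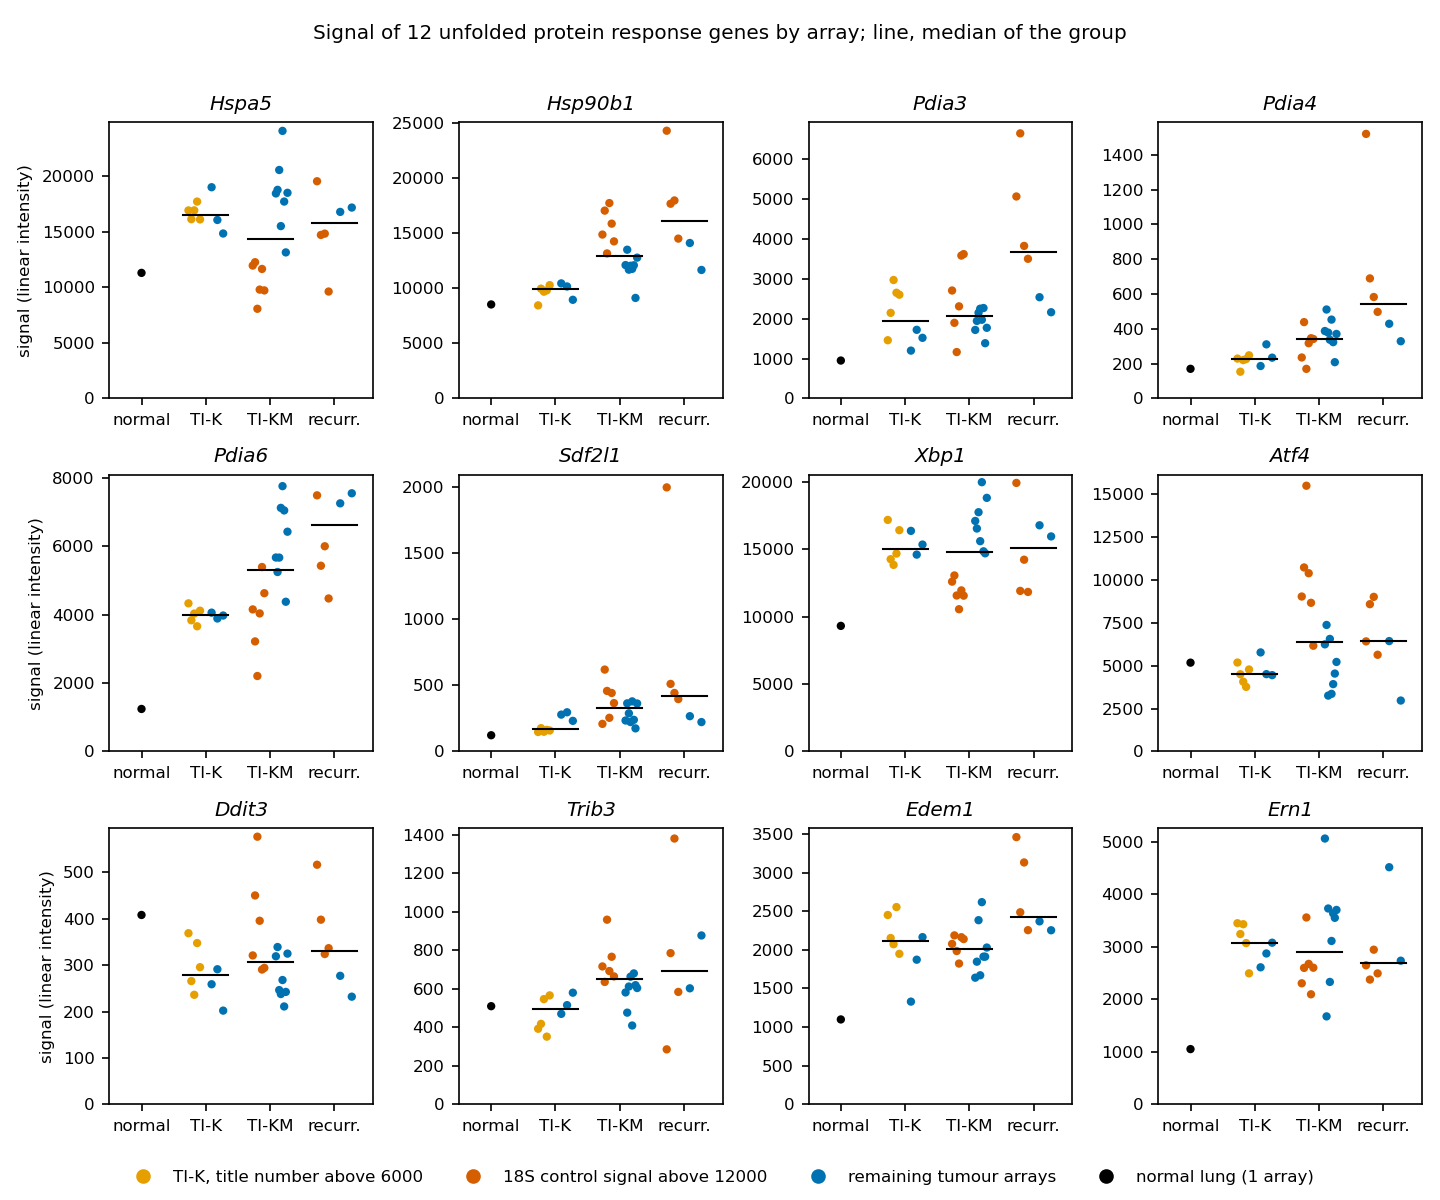
Deposited signal of the named genes in each array by group, on a linear axis that starts at 0 in each panel; points are arrays, coloured by set, and lines are group medians. For Pdia4 and Hsp90b1 all 6 recurrences lie above all 8 TI-K primaries, and for Sdf2l1 recurrence 1 lies at 1999 above all others.

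Leaving recurrence 1 out kept 4 of these 5 calls. Without it the limma differences were 1.08 ± 0.22 for Pdia4 (adjusted p = 0.00335), 0.63 ± 0.13 for Hsp90b1 (0.00436), 0.82 ± 0.26 for Pdia3 (0.0378) and 0.80 ± 0.26 for Sdf2l1 (0.0377), while Pdia6 stood at 0.60 ± 0.21 with an adjusted p of 0.0570. Trib3 was called in its place, at 0.74 ± 0.19 (adjusted p = 0.0131), and limma called 13.5% of all genes. In the fit that includes recurrence 1, 2 of the 12 measured plasma and B cell markers were higher in recurrences than in TI-K primaries. They were Tnfrsf17 at 1.66 and Irf4 at 1.16, none was lower, and the median log2 difference of the 12 was 0.88. In that fit 12.2% of all genes were called higher, so 2 of 12 lies near the background. Both markers were dim in TI-K primaries, with median signals of 16.1 and 40.9, near the offset added before log2. Without recurrence 1 only Tnfrsf17 was called and the median log2 difference of the 12 was 0.19. With the sets as a block neither was called, Tnfrsf17 standing at 0.68 (limma adjusted p = 0.681) and Irf4 at -0.07 (0.962). None of these markers was at 0 in any group. The part of those cells in the differences was not tested.

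With the sets of arrays as a block, limma called 0 members for recurrences against TI-K primaries (0.0959% of all genes). In that fit 11 members and 1624 of all 14602 genes had an unadjusted p below 0.05. Pdia6 was then at 1.04 ± 0.22 (limma adjusted p = 0.0559) and Pdia4 at 1.20 ± 0.36 (0.179), while Hsp90b1 was at 0.45 ± 0.15 (0.223). With recurrence 1 left out as well, a choice made after seeing the data, Pdia6 was called at 0.98 ± 0.21 (adjusted p = 0.0477; 0.308% of all genes called). Among the remaining 13 tumours alone, where 3 TI-K primaries meet 2 recurrences, limma again called 0 members, with 0.13% of all genes called. There Pdia6 was at 0.89 ± 0.20 and Pdia3 at 0.67 ± 0.22, and Sdf2l1 turned to -0.13. The direction of Pdia4, Pdia3, Pdia6 and Hsp90b1 was the same in each of these fits. All of them take the TI-K side from the same 3 remaining TI-K primaries, so they are not separate checks.

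The other 10 chaperones were not called between recurrences and TI-K primaries. The 15 together had a median log2 difference of 0.44, with 12 above 0, beside a median of 0.11 over all genes tested; the medians of the other arms were 0.12 for sensors and Xbp1, 0.38 for the Atf4-Chop arm, 0.23 for degradation and 0.06 for translocation. Hspa5 (BiP), the Hsp70 chaperone that also holds the 3 sensors inactive, had signals of 14822, 16502 and 18980 in TI-K primaries, 8056, 14305 and 24043 in TI-KM primaries, 9605, 15786 and 19519 in recurrences and 11283 in the normal lung. The narrow TI-K range lay inside the wider ranges of the other tumour groups, with 1 recurrence above and 3 below every TI-K primary. The difference from TI-K primaries to recurrences was -0.14. Other probe sets of Hspa5 gave 0.67 and 1.19, so for Hspa5 the sign depends on the probe set read. Creld2, a thiol oxidoreductase secreted under ER stress, reached 12285 in recurrence 1 where the next recurrence was at 3507, and Manf, a secreted protein of the ER stress response, 10012.

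Between TI-KM and TI-K primaries, the comparison that bears on Mad2, 1 of the 37 genes was called, and 7.99% of all genes were, 5.5% higher. Hsp90b1 was higher in TI-KM primaries by log2 0.45 ± 0.12, 1.36-fold (limma adjusted p = 0.0195). Its ranges, given above, overlapped, and no member had every TI-KM primary above every TI-K primary, as 0.0616% of all genes did. The call was lost with the sets as a block, at 0.25 ± 0.13 (adjusted p = 0.974), and without TI-K primary 1 the adjusted p was 0.0532. In the block fit the TI-K side rests on 3 arrays. The other probe set of Hsp90b1 gave -0.40.

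The next members by p did not pass. Selenos, a selenoprotein of the degradation machinery, had signals of 7562, 9676 and 16518 in TI-K primaries, 11171, 13833 and 16746 in TI-KM primaries, 9216, 13542 and 15146 in recurrences and 9289 in the normal lung. Within TI-K primaries the 5 arrays of high title number lay at 7562 to 9717 and the other 3 at 12435 to 16518, so the group holds separate clusters. The difference to TI-KM primaries was 0.38 ± 0.13 (limma adjusted p = 0.0587). Pdia4 stood at 0.54 ± 0.20 (0.0875) and Sdf2l1 at 0.64 ± 0.27 (0.117); with recurrence 1 left out of the fit, both were called at the same differences, with adjusted p of 0.0435 and 0.0432, and 9.53% of all genes were. With the sets as a block 0 members and 0% of all genes were called, and 1 member and 709 of all 14602 genes had an unadjusted p below 0.05.

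Recurrences and TI-KM primaries, which share their genotype, differed in no member at an adjusted p below 0.05, and limma called 0.26% of all genes. At an unadjusted p below 0.05, 8 members were higher in recurrences, where 1809 of all 14602 genes passed in either direction. Pdia4 led with 0.80 ± 0.22 (limma adjusted p = 0.121), followed by Pdia3 at 0.81 ± 0.23 (0.125). Next came Edem1, a lectin-like protein that hands misfolded glycoproteins to degradation, at 0.38 ± 0.13 (0.2), and Atf6 at 0.42 ± 0.16 (0.287). The 15 chaperones had a median of 0.30, with 13 above 0, beside 0.04 over all genes.

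Recurrence 1 and recurrence 6 bear on these values. Without recurrence 1 the median of the chaperones was 0.17 and Pdia4 was at 0.54 ± 0.20 (limma adjusted p = 0.346). Without recurrence 6, 2 members were called, Pdia3 at 0.96 (limma adjusted p = 0.0427) and Pdia4 at 0.97 (0.0394), and 0.972% of all genes were. With the sets as a block 0 members and 0.699% of all genes were called. The smallest p was that of Asns, asparagine synthetase, at 0.86 ± 0.24 (limma adjusted p = 0.0751). In that fit 11 members and 2188 of all 14602 genes passed an unadjusted 0.05. With recurrence 1 left out of that fit too, 0 members and 0.657% of all genes were called.

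Within the high-18S arrays, 4 recurrences against 6 TI-KM primaries, Pdia4 had signals of 498, 583, 690 and 1521 in recurrences and 170 to 439 in primaries. The sets of values did not overlap. Dnajc3, an ER cochaperone, ran from 4157 to 4709 against 1451 to 3480, and Edem1 from 2254 to 3458 against 1822 to 2187. These 3 genes were the members with every such recurrence above every such primary, as were 0.808% of all genes. None of them was called by limma (Pdia4 1.27 ± 0.33, adjusted p = 0.296). It called 0 of the 37 members and 0.00685% of all genes there. An unadjusted p below 0.05 was reached by 10 members and by 1442 of all 14602 genes. Among the remaining arrays Asns alone had both recurrences, at 1682 and 1889, above the 8 primaries, at 577 to 1551, as did 3.56% of all genes. In that set limma called 0 members and 0.0822% of all genes. There 2 members and 1146 of all 14602 genes had an unadjusted p below 0.05. The difference in the contrast between the sets was called for 0 members (0.0137% of all genes), and 8 members and 1052 of all 14602 genes passed an unadjusted 0.05. Pdia4 had the smallest p among members there, at 1.22 ± 0.42 (limma adjusted p = 0.47). That order rests on recurrence 1: without it Pdia4 was at 0.88 ± 0.37 (0.484) and Ero1a came first at 1.56 ± 0.41 (0.176), with 0 members and 11 of 14602 genes called.

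**Figure D3:**
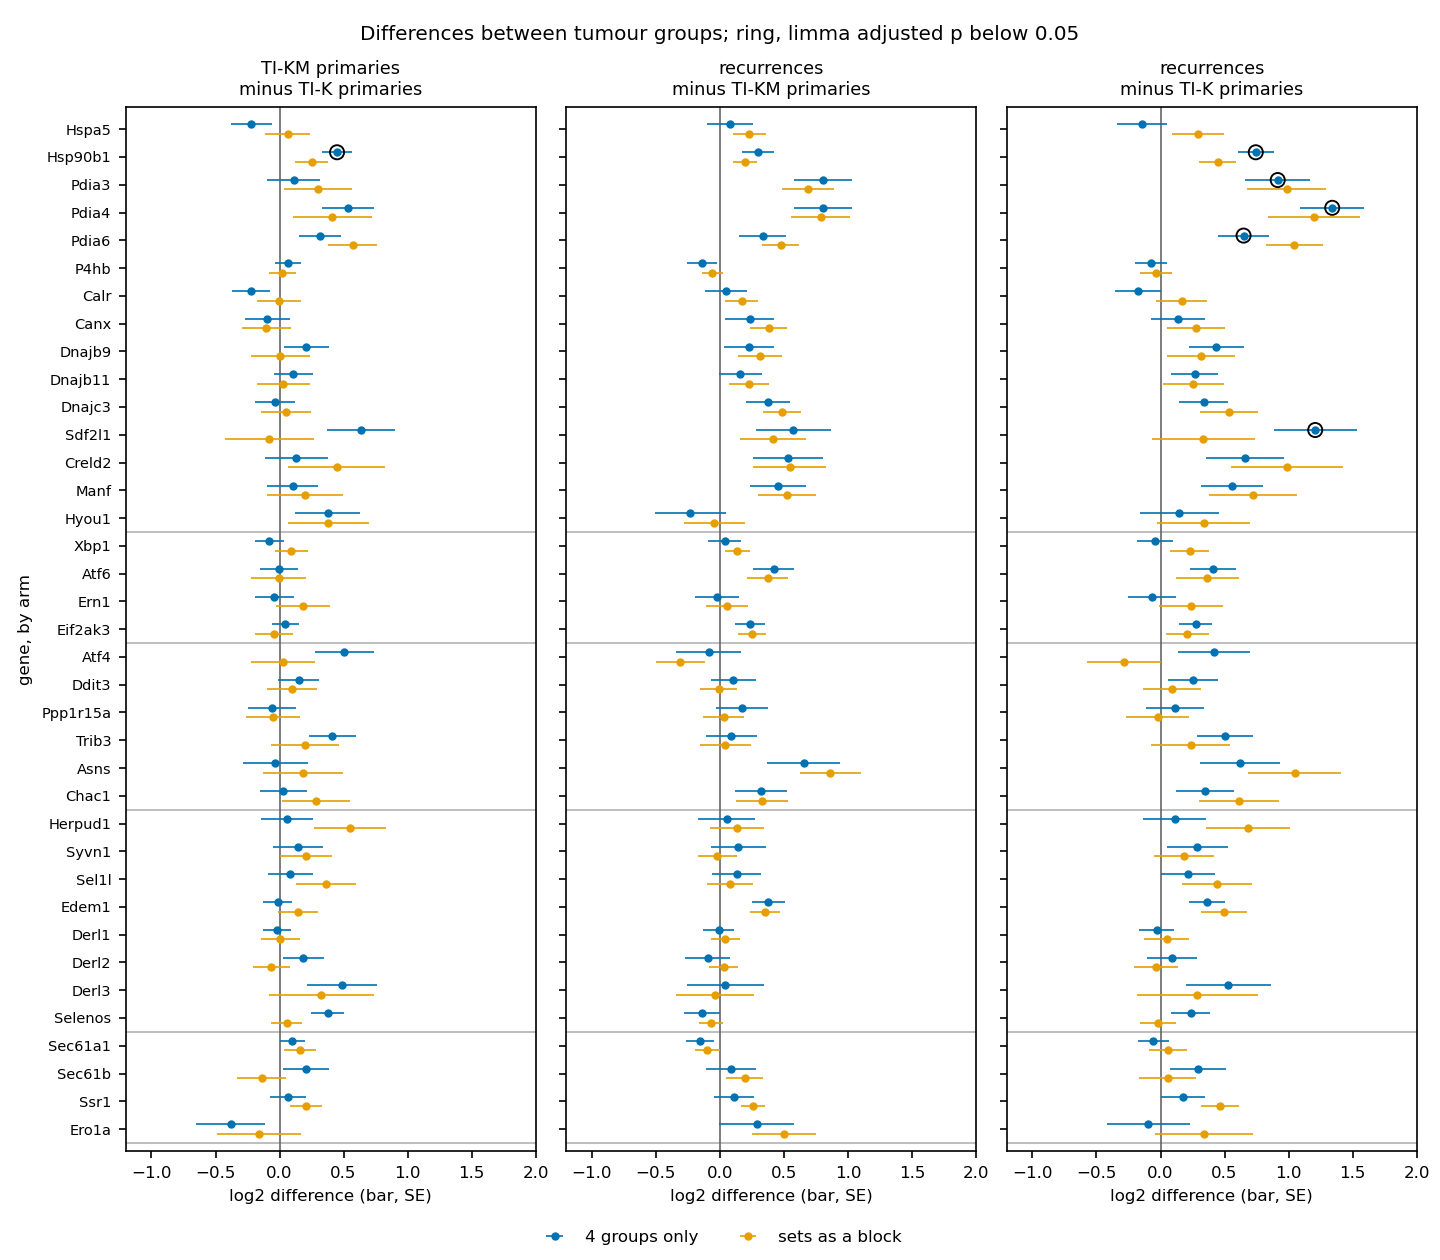
Log2 difference (bars, SE) of the 37 genes in the 3 comparisons between tumour groups, as fitted over all arrays and with the sets of arrays as a block; a ring marks a limma adjusted p below 0.05. Rings stand at 1 gene for TI-KM against TI-K primaries, at 0 for recurrences against TI-KM primaries and at 5 for recurrences against TI-K primaries, all in the fit over all arrays.

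The Atf4-Chop arm was called in none of the 3 tumour comparisons by limma; in each, its 6 members are set beside the shares of all genes called given above. Atf4 itself, the transcription factor of the arm, had signals of 3767, 4507 and 5778 in TI-K primaries, 3257, 6407 and 15504 in TI-KM primaries, 2969, 6430 and 9019 in recurrences and 5179 in the normal lung. The highest array was TI-KM primary 3. The difference from TI-K to TI-KM primaries was 0.51 ± 0.23 (limma adjusted p = 0.147), and a second Atf4 probe set gave -0.14.

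Ddit3, the factor Chop that promotes cell death under lasting stress, ran over 202, 279 and 369 in TI-K primaries, 211, 307 and 577 in TI-KM primaries and 232, 330 and 517 in recurrences, with 408 in the normal lung. The tumour groups overlapped over most of their range. Trib3, a pseudokinase target of Atf4 and Chop, had signals of 352, 493 and 581 in TI-K primaries, 410, 650 and 960 in TI-KM primaries and 286, 695 and 1382 in recurrences, with 510 in the normal lung. Recurrence 1 was the lowest of 28 tumours for Trib3 and recurrence 3 the highest, so the recurrences enclose both other groups. The limma difference of Trib3 from TI-K primaries to recurrences was 0.50 ± 0.22 (adjusted p = 0.1).

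Among the sensors, Atf6 had signals of 484, 621 and 712 in TI-K primaries, 398, 610 and 949 in TI-KM primaries and 631, 809 and 1108 in recurrences, with 847 in the normal lung. Recurrences tended to the upper part of the range, with a limma difference of 0.41 ± 0.18 from TI-K primaries (adjusted p = 0.0989). Xbp1 had signals of 13856, 15031 and 17197 in TI-K primaries, 10562, 14790 and 19999 in TI-KM primaries, 11846, 15106 and 19944 in recurrences and 9325 in the normal lung. The 3 tumour groups overlapped around like medians, and limma called Xbp1 in none of the comparisons between them.

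Against the normal lung, the tumours had more of several ER folding, degradation and translocation transcripts and no called change in the Atf4-Chop arm. In TI-K and in TI-KM primaries the same 6 genes rose: P4hb, Pdia6, Ern1, Sec61a1, Edem1 and Herpud1. In recurrences these 6 and Pdia3, Pdia4, Hsp90b1 and Eif2ak3 rose, 10 in all, and no member fell in any of the 3 comparisons. The 6 calls are 16.2% of the members, beside 13.5% of all genes called (6.74% higher) in TI-K primaries and 14.9% (7.75% higher) in TI-KM primaries; the 10 calls in recurrences are 27% of the members, beside 12.6% (6.46% higher). The 3 comparisons share the 1 normal array, whose own spread is unknown and was borrowed from the tumours.

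Pdia6 was furthest from the normal lung among the called genes, at 1243 there and 2207 to 7764 over the 28 tumours. All tumours lay above it. The limma differences were 1.67 ± 0.39 in TI-K primaries (adjusted p = 0.00373), 1.98 ± 0.38 in TI-KM primaries (4.79e-04) and 2.31 ± 0.40 in recurrences (1.59e-04), the last a 4.97-fold difference. Eif2ak3, called in recurrences at 0.79 ± 0.26 (limma adjusted p = 0.0389), was not called without recurrence 2 or recurrence 5 (adjusted p up to 0.0546).

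P4hb, the founding disulfide isomerase and a subunit of prolyl hydroxylase, had a signal of 9054 in the normal lung, and of 16086, 19006 and 25074 in TI-K primaries, 16399, 19779 and 23482 in TI-KM primaries and 12424, 18604 and 22811 in recurrences. Every tumour was above the normal lung, and recurrence 1 was the lowest tumour. The limma differences were 1.06 ± 0.25, 1.12 ± 0.24 and 0.98 ± 0.25.

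Ern1, the kinase and RNase that splices Xbp1, was at 1053 in the normal lung, 2494, 3074 and 3449 in TI-K primaries, 1676, 2893 and 5061 in TI-KM primaries and 2376, 2692 and 4515 in recurrences. Here too every tumour lay above it. The limma differences were 1.5 ± 0.37, 1.46 ± 0.36 and 1.43 ± 0.38, but a second probe set of Ern1 that passed the filter gave -0.27 in TI-K primaries and 1.28 in recurrences, and a further one gave 0.46 and -0.37, so the dimmer probe sets do not share one direction.

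Herpud1 had a signal of 1646 in the normal lung, 3218, 4284 and 7183 in TI-K primaries, 2020, 5097 and 8046 in TI-KM primaries and 3565, 4851 and 6817 in recurrences. Edem1 was at 1099, then at 1330, 2112 and 2553, at 1639, 2007 and 2616, and at 2253, 2427 and 3458 in the same order. Both genes of degradation were higher in every tumour. Their limma differences in recurrences were 1.57 ± 0.49 for Herpud1 (adjusted p = 0.0326) and 1.24 ± 0.28 for Edem1 (0.00293). In TI-K primaries Herpud1 was at 1.45 ± 0.48 (limma adjusted p = 0.0415), and without TI-K primary 2, 3 or 4 it was not called (adjusted p up to 0.0569).

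Sec61a1, the pore of the translocation channel, was at 5714 in the normal lung, 9582, 10586 and 12076 in TI-K primaries, 8710, 11383 and 15052 in TI-KM primaries and 8465, 10270 and 12774 in recurrences. All tumours exceeded the normal lung. In all, 13 members had every tumour above the normal lung, as did 12.6% of all genes. Derl1, a degradation channel protein, was the 1 member with every tumour below it, at 15222 against 6882 to 12741, as were 12.4% of all genes; it passed no limma test over all arrays.

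By arm, the chaperones had median differences to the normal lung of 0.56 in TI-K primaries, 0.75 in TI-KM primaries and 0.98 in recurrences, beside medians of all genes of 0.00, 0.10 and 0.14. The degradation genes had 0.35, 0.58 and 0.62, and the translocation genes 0.77, 0.70 and 0.85. The Atf4-Chop arm had -0.29, -0.28 and -0.03. All 6 of its members were below the normal lung on average in TI-K primaries, with none called, the largest being Asns at -1.31 ± 0.62 (limma adjusted p = 0.171), from 1883 in the normal lung to 440, 768 and 1528 in TI-K primaries.

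**Figure D4:**
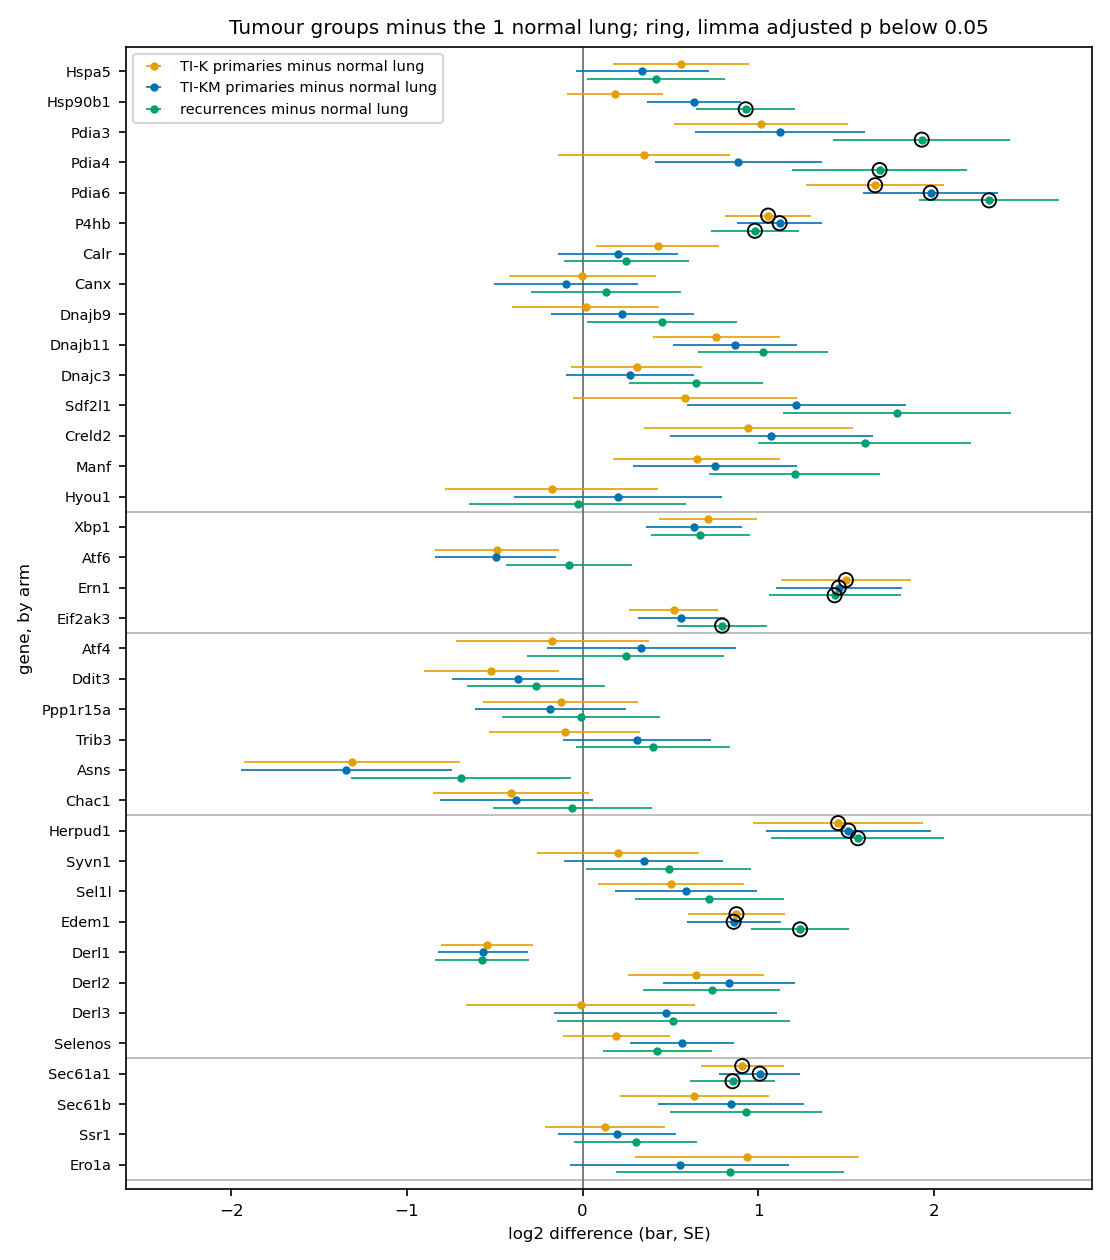
Log2 difference (bars, SE) of each of the 37 genes between each tumour group and the 1 normal lung, ordered by arm; a ring marks a limma adjusted p below 0.05. Pdia6 lies furthest to the right, at 1.67, 1.98 and 2.31, and none of the 6 genes of the Atf4-Chop arm carries a ring.

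Signals of cell type markers differed in the same comparison, where cell numbers and RNA per cell cannot be told apart. Of 8 epithelial markers 7 rose in each tumour group. Their summed signal was 7846 in the normal lung and 18753 to 75020 in tumours. Of 9 measured alveolar type II markers 7 rose. Their sum was 60259 in the normal lung and 80044 to 195219 in tumours. Sftpc, 1 of these 9, did not follow the sum, with a signal of 28262 in the normal lung. Its medians were 18660 in TI-K primaries, 16570 in TI-KM primaries and 13617 in recurrences. Its highest tumour signal was 31058, in a TI-K primary. Over all genes 6.74%, 7.75% and 6.46% were called higher in these comparisons. Of 7 endothelial markers 4 were lower in TI-K primaries, with sums of 16050 in the normal lung and 2430 to 5750 there. The 2 measured fat cell markers were lower too, with sums of 44304 and 1377 to 7025. Of all 14602 genes 992 were called lower. Cidea, 1 of these fat cell markers, was at 17182 in the normal lung and at most 265 in any tumour. The 1 reference array thus holds far more fat cell transcript than the tumours, which bears on every comparison with it. The part of these cells in the differences of ER genes was not tested. When arrays were scaled to a common median, limma called 0, 1 and 2 members in the 3 comparisons and 8.2%, 9.55% and 7.38% of all genes; all differences of the 6 genes called in every group stayed above 0. That scaling moved the median over all genes from 0.00 to 0.13 in TI-K primaries against the normal lung, and from 0.11 to 0.01 in recurrences against TI-K primaries, where limma then called 4 of the 5 genes and not Pdia6 (15.9% of all genes). Against the remaining arrays only, 12, 17 and 15 members were called, 1 of them lower each time (Derl1), beside 23.9%, 26.3% and 20.1% of all genes. Against the high-18S arrays, the set on whose side the normal lung lies, the counts were 4 in TI-KM primaries, with Asns lower, and 7 in recurrences, beside 15.1% and 11.8% of all genes. Pdia6, P4hb and Ern1 were called in each of these fits within sets.

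Within TI-KM primaries, limma called 22 of the 37 members between the 6 high-18S arrays and the other 8, with 6 higher and 16 lower in the former, where it called 42.6% of all genes, 30% higher and 12.5% lower. The lower ones were mostly chaperones (8 of 15 lower, 1 higher) and translocation genes (3 of 4 lower), and 3 of the 6 Atf4-Chop genes were higher. Median differences were -0.46 for the chaperones, -0.60 for translocation and 0.40 for the Atf4-Chop arm, beside 0.20 for all genes. The median signal per array was 122 to 170 in the high-18S TI-KM primaries and 73.8 to 102 in the remaining ones. In recurrences it was 126 to 132 and 69.9 to 85.2. The trimmed mean was the same on every array, so bright and dim genes may shift apart between the sets. The part of this shift in the differences between arms was not tested.

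Hspa5 had signals of 8056 to 12240 in the high-18S TI-KM primaries and 13123 to 24043 in the remaining ones, with no overlap, and a limma difference of -0.79 ± 0.13 (adjusted p = 4.28e-05). Xbp1 ran from 10562 to 13072 and from 14716 to 19999, again with no overlap (-0.50 ± 0.10, adjusted p = 3.13e-04). Atf4 went the other way, from 6166 to 15504 in the high-18S arrays and 3257 to 7380 in the remaining ones, overlapping slightly (1.0 ± 0.20, adjusted p = 3.67e-04). Hsp90b1 was also higher in the high-18S arrays, at 13161 to 17732 against 9121 to 13497 (0.38 ± 0.10, adjusted p = 0.00428), while Canx, the membrane lectin chaperone calnexin, was lower, at 5217 to 13683 against 13936 to 18028. In all, 9 members had every high-18S array below every remaining one, as did 2.92% of all genes, and Syvn1, the ubiquitin ligase of ER degradation, was the 1 member the other way, as were 11.4%. Of the cell type markers, 4 of the 12 measured plasma and B cell markers and 5 of 9 fibroblast markers were higher in the high-18S arrays and none lower. Over all genes 30% were called higher, so the plasma and B cell count lies near the background. The summed plasma and B cell signals overlapped, at 50879 to 81056 in the high-18S arrays and 34355 to 74547 in the remaining arrays. The part of those cells in the differences was not tested.

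In recurrences, 6 members differed between 4 high-18S and 2 remaining arrays, beside 18.8% of all genes: Sdf2l1, Pdia3, Ppp1r15a, Syvn1 and Hsp90b1 were higher and Ssr1, a translocon subunit, lower (-0.53 ± 0.16, limma adjusted p = 0.0267). Without recurrence 1 this left Ppp1r15a, the phosphatase subunit that restores translation, at 0.92 (adjusted p = 0.0282), beside 18.1% of all genes. In TI-K primaries the 5 arrays of high title number were lower than the other 3 in Selenos (-0.72 ± 0.13), Derl2 (-0.76 ± 0.15) and Sec61b (-0.87 ± 0.21), 3 members beside 7.69% of all genes.

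**Figure D5:**
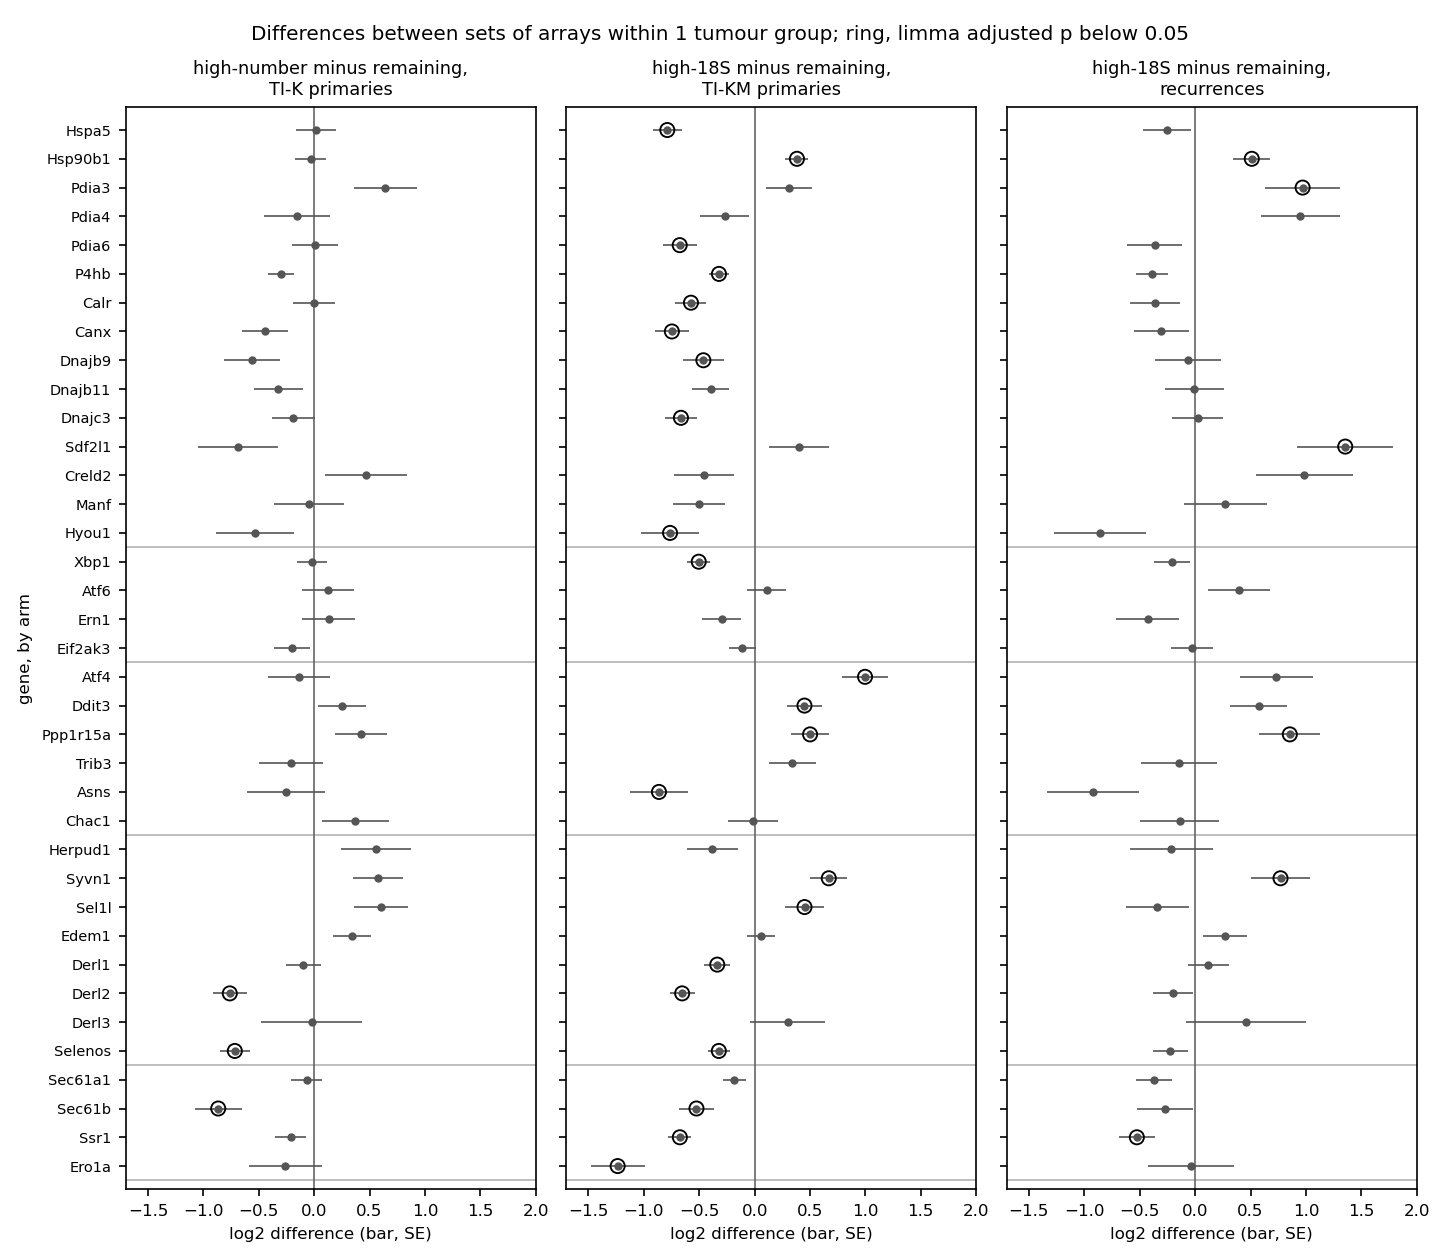
Log2 difference (bars, SE) of each of the 37 genes between sets of arrays within a group: high-18S minus remaining arrays in TI-KM primaries and in recurrences, and arrays of high title number minus the other arrays in TI-K primaries; a ring marks a limma adjusted p below 0.05. In TI-KM primaries 22 genes carry a ring, with Ero1a at -1.24 and Atf4 at 1.0 at the ends.

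Most pairs of chaperones varied together from tumour to tumour within groups and sets. After the mean of each group and set was removed, the 105 pairs of chaperones had a median Pearson r of 0.39 over the 28 tumour arrays, with 85 pairs above 0, and the median over all pairs of genes tested was 0.0031. Leaving out recurrence 1 gave 0.36, with 87 pairs above 0. Over all 666 pairs of members the median r was 0.13, with 419 above 0. Pairs within the Atf4-Chop arm had a median r of 0.14, the 6 pairs of translocation genes -0.16 with 2 above 0, and pairs of a chaperone with an Atf4-Chop gene -0.08. Hspa5 and Manf had r = 0.79 (0.74 without recurrence 1), Hspa5 and Xbp1 0.72 (0.63), and the cochaperones Dnajb9 and Dnajc3 0.77 (0.79). Dnajb11 and Creld2, by contrast, had 0.82 with recurrence 1 and 0.53 without it. The lowest r of a pair of chaperones was -0.59, for P4hb and Creld2 over the 28 arrays. These correlations are descriptions; the points share array, scaling and cell content.

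Beyond the 37 genes, further lists of the secretory pathway and of stress were read in the same fits. Their counts stand beside the 18.8% of all genes called in recurrences against TI-K primaries (12.2% higher). Of 25 measured genes of translocation, signal peptidase and glycosylation, 5 rose and 2 fell in recurrences against TI-K primaries, led by the signal peptidase subunit Spcs2 (0.95 ± 0.17, limma adjusted p = 0.00103) and the oligosaccharyltransferase Stt3a (0.76 ± 0.14, 0.00126). Of 22 other ER folding genes 4 rose and none fell, led by the glucosidase subunit Ganab (0.57 ± 0.15, 0.0129) and the prolyl isomerase Fkbp2 (0.64 ± 0.18, 0.0137). Of 28 genes of ER export and retrieval 4 rose and 1 fell, with the COPII coat protein Sec23b at 0.68 ± 0.13 (0.00157) and the KDEL receptor Kdelr1, which returns chaperones to the ER, at 0.97 ± 0.26 (0.0135). Of 18 other degradation genes Os9 and Rnf5 rose. The medians of these 4 lists were 0.23, 0.24, 0.04 and 0.13, beside 0.11 over all genes.

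The other genes of the Atf4 and integrated stress response were mixed: 6 of 39 measured rose and 1 fell in recurrences against TI-K primaries, with a median of 0.12. The one that fell was Eif2ak4 (GCN2), the kinase that senses missing amino acids, at -1.51 ± 0.26 (limma adjusted p = 5.12e-04); Ppp1r15b, a phosphatase subunit, rose by 0.56 ± 0.13 (0.00484). Of 20 cytosolic and mitochondrial heat shock genes 4 rose and 1 fell, led by Hspa4 (1.41 ± 0.32, 0.00475) and Hspa1a (1.75 ± 0.53, 0.0234). Between TI-KM and TI-K primaries Hspa4 rose by 1.52 ± 0.26 (0.00564) and Hspa1a by 1.85 ± 0.44 (0.0131), Os9 by 0.61 ± 0.14 (0.0127) and Stt3a by 0.59 ± 0.12 (0.00627). With the sets as a block none of these 4 was called in that comparison, with Hspa4 at 0.47, Hspa1a at 1.44, Os9 at 0.17 and Stt3a at 0.16 (limma adjusted p of 0.969 to 0.995). With the sets as a block, limma called 0 genes of any of these 6 lists in recurrences against TI-K primaries, where Eif2ak4 stood at -0.71 and Hspa4 at 0.25, and Sec23b at 0.60. Against TI-KM primaries, recurrences had 0 called genes in all 6 lists.

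Probe sets of the same gene often disagreed between tumour groups. Among the 49 further probe sets that passed the filter, of 25 members, 27 had the sign of the representative one for recurrences against TI-K primaries, 36 against TI-KM primaries and 25 for TI-KM against TI-K primaries. Against the normal lung 39, 41 and 43 of the 49 did. With the mean of all probe sets in place of the brightest, limma called 3 members between TI-KM and TI-K primaries (9.75% of all genes) and 11 members between recurrences and TI-K primaries (22.6% of all genes), among them Hspa5 at 0.57 (adjusted p = 0.0117), Hyou1, a large Hsp70 chaperone, at 0.89 (0.00133) and Xbp1 at 0.45 (0.0225) as higher and Ddit3 at -0.55 (0.0270) as lower. Hsp90b1 and Pdia6 were not among them.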

How the data were processed

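RNA of 29 samples was hybridised to Affymetrix arrays after 2 cycles of target preparation, 1 array each. The deposited values are linear signal intensities from MAS5, per the submitters' processing notes (no version named); their 2% trimmed mean is 500.003 on every array. The series text names a smaller array type than the 45101 probe sets of the table. The depth of an array has no count; the number of arrays limits the precision.

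Of the probe sets, 34958 had 1 gene, and 34754 of these were placed by gene identifier. Signals were taken as log2(signal + 20), so fold changes understate low genes. Probe sets above the 40th percentile of an array's signals on 6 or more arrays entered the fit (31932), and each gene was represented by its brightest probe set. Limma 3.58.1 (R 4.3.3; lmFit and eBayes with trend) was fitted to 4 groups over 14602 genes, with Benjamini-Hochberg adjustment; a call is an adjusted p below 0.05. The scripts were tested on simulated data. Promoter windows and gene names come from RefSeq tables (GRCm38.p6), read with Python 3.11.15. Protein sequences were not analysed here.

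The genes named are Hspa5, Hsp90b1, Xbp1, Atf4, Ddit3 and Trib3, the 4 members of smallest p in each comparison, and the 2 called genes of smallest p from each other list in each tumour comparison; other genes singled out (Creld2, Manf, Dnajc3, Derl1, Selenos within TI-K primaries and others) were picked after their values were seen. The members and lists were chosen with earlier results of these data known. Alternatives were the offset, scaling, filter, choice of probe set, samples fitted, 3′/5′ ratio, sets of arrays and leaving out each array. Those that leave recurrence 1 out of a fit with or within sets, and the correlations without it, were chosen after seeing the data.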

Additional observations from a re-analysis of the deposited data

Results flagged for a closer look

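Within the tumour groups of 4 to 10 samples, 6 of 74 gene-by-group sets of signals held 1 array far from the rest, where chance gives about 1 in 20, or 3.7 sets. That figure treats the sets as independent, but they share arrays and genes that vary together, so it is no test. Recurrence 1 gave 3 of them: Creld2 at 12285 where the nearest recurrence was at 3507, Dnajb11, a cochaperone of Hspa5, at 2874 against 1489, and Sdf2l1 at 1999 against 511. In that array the 12 measured plasma and B cell markers summed to 129337, against 39909 to 67761 in the other recurrences, and their part in these signals was not tested.

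Recurrence 5 gave a pair: Ern1 at 4515, where the nearest recurrence was at 2945, and Sel1l, the adaptor of Syvn1, at 5906 against 3867. TI-K primary 6 had a Chac1 signal of 66.2, below the next TI-K primary at 135; Chac1 encodes a glutathione-degrading target of Atf4.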

How the results depend on the processing

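The counts of members called were 1 for TI-KM against TI-K primaries, 0 for recurrences against TI-KM primaries, 5 for recurrences against TI-K primaries, and, against the normal lung, 6 for TI-K primaries, 6 for TI-KM primaries and 10 for recurrences. Leaving out 1 array at a time gave 0 to 3, 0 to 2, 4 to 6, 5 to 6, 6 to 7 and 9 to 11. For TI-KM against TI-K primaries, the count was 0 with a common median, with the sets as a block and with the remaining arrays only, 2 with quantile normalization, without _x_at and _s_at probe sets and with the 3′/5′ ratio as a covariate, 3 with the mean of all probe sets and 4 with only the groups compared. For recurrences against TI-K primaries it was 0 with the sets as a block and with the remaining arrays only, 1 with the block and recurrence 1 left out, 3 with the 3′/5′ ratio and 11 with the mean of all probe sets. Against the normal lung, a common median gave 0, 1 and 2, the mean of all probe sets gave 3 in TI-K primaries, the remaining arrays gave 12 and 17 in both kinds of primaries, and in recurrences only the groups compared gave 1 and the 3′/5′ ratio 6. The cause of these changes was not tested. With the mean of all probe sets the sign turned for Ddit3 (-0.48 for TI-KM against TI-K primaries, -0.55 for recurrences against TI-K primaries), Hspa5 (0.57) and Xbp1 (0.45), both for recurrences against TI-K primaries, and with the remaining arrays only for Sdf2l1 (-0.13). Among the values not named here, none changed sign while called. No paired analysis was possible because replicate numbers only follow the order of deposition. Signals near the offset have little precision over background, and the normal lung is 1 array.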

Other observations

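Some ER genes spread widely between arrays of one group. Ero1a, the oxidase that recharges disulfide isomerases, ran from 1329 to 7049 within recurrences, with the highest signal in recurrence 2, and from 1013 to 2282 in the high-18S TI-KM primaries against 2566 to 4515 in the remaining ones, with no overlap. Derl3, a degradation protein abundant in secretory cells, lay in recurrence 1 at 5.69 times the median of the other tumours, beside 7.49 times for Sdf2l1, 6.28 times for Creld2 and 4.63 times for Pdia4, while P4hb, Trib3 and Sec61a1 had their lowest tumour signal in that array.

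Of the heat shock genes outside the ER, 3 of 20 measured were called higher by limma in TI-KM than in TI-K primaries and none lower, with a median log2 difference of 0.27, where the 15 ER chaperones had a median of 0.11 and 1 call and all genes a median of 0.08. Over all genes 5.5% were called higher in that comparison. With the sets as a block limma called none of the heat shock genes, and Hspa4 went from 1.52 to 0.47. The difference between the lists was not tested.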
